A study of Homo sapiens with 6 samples.

Results

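The semaphorin system was examined in D283 tumorspheres through 31 genes of 19970 protein-coding genes on chromosomes 1 to 22 and X: 20 semaphorins, 9 plexins and 2 neuropilins. A gene was credited with every peak and every differential region that overlapped its RefSeq span (GRCh38) extended by 2 kb on both sides by at least 1 bp. D283 is an established cell line of Group 3 medulloblastoma, a cerebellar tumour of childhood, and was grown as floating spheres in neural precursor medium. In OTX2low cells the homeodomain factor OTX2 had been silenced with 30 nM siRNA, and OTX2high cells had received a non-targeting scramble siRNA. H3K4me3, which marks active and poised gene starts, and H3K27me3, which Polycomb complexes lay down, were each profiled by ChIP-seq in 1 library per condition, so no difference has a replicate check.

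Semaphorins are guidance ligands that mostly repel growing axons and migrating cells, and several also act on vessels and immune cells. Class 3 semaphorins are secreted, those of classes 4 to 6 span the membrane, and SEMA7A is held to it by a lipid anchor. Plexins are their receptors and act on small GTPases through a cytoplasmic GAP domain, while neuropilins are the co-receptors that most class 3 ligands need. In the developing mouse cerebellum the Sema6A protein and its plexin receptors guide granule cell migration.

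The H3K4me3 libraries held 20914582 tags in OTX2low and 33137731 in OTX2high after filtering. In the lists with the sample labels OTX2low and OTX2high, the H3K27me3 libraries held 33885628 and 40271458 tags. The file headers of these H3K27me3 lists name the opposite condition, and the IgG depths in them go with the header names. The lists are therefore called by their sample labels and give no direction here, and H3K27me3 directions come from the authors' deposited table as it names the conditions. With the sample labels taken as right, each of those directions would turn round. At OTX2 itself the H3K4me3 region with the most reads had 1768 normalized reads in OTX2low and 3119 in OTX2high, although siRNA acts on the transcript and this is no direct test of silencing. All 8 markers of the Group 3 and photoreceptor programme had an H3K4me3 peak in both lists. Among other cell types, peaks lay at 2 of 4 endothelial markers in both lists. They lay at 0 and 1 of 4 immune markers and at 3 and 2 of 4 mesenchymal markers in OTX2low and OTX2high. Over all genes a peak lay at 73.7% in OTX2low and 75.0% in OTX2high, so a peak at a marker is common to most genes.

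H3K4me3 marked most of the system in both conditions. A peak lay at 27 of the 31 genes in OTX2low and at 28 in OTX2high, beside 73.7% and 75.0% of all genes. No peak of either mark was listed at SEMA3E, SEMA6B or PLXNB3. SEMA3G, a vascular class 3 ligand, had a single narrow peak of 267 bp in OTX2high, 6.33-fold over IgG, and none in OTX2low. In the OTX2high list the highest fold enrichments among these genes were at PLXNA2, PLXNB2 and a neighbour of SEMA4G. In OTX2low a peak credited to SEMA4C, a class 4 ligand, reached 45.8-fold, above both plexins. That peak lay outside SEMA4C and only reached into its 2 kb extension. The peak over the start of SEMA4C had 36.1-fold in OTX2low, below both plexins. The largest PLXNA2 peak reached 40.9-fold in OTX2low and 63.5-fold in OTX2high, above 86.8% and 98.4% of the peaks of its own list. The largest PLXNB2 peak reached 42.0-fold in OTX2low and 62.1-fold in OTX2high. The tallest peak credited to SEMA4G, at 47.0-fold in OTX2low and 59.3-fold in OTX2high, lay in the 2 kb extension at the genes MRPL43 and TWNK and not in SEMA4G. In OTX2low 62 of 71 peaks of the system (87.3%) were overlapped by an OTX2high peak, as were 87.4% of all OTX2low peaks. In OTX2high 48 of 95 peaks (50.5%) were overlapped by an OTX2low peak, against 67.1% of all OTX2high peaks. Many of the unshared peaks lay inside SEMA6D, which had 9 peaks in OTX2low and 21 in OTX2high, and SEMA3A, which had 8 in OTX2low and 17 in OTX2high.

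**Figure D1:**
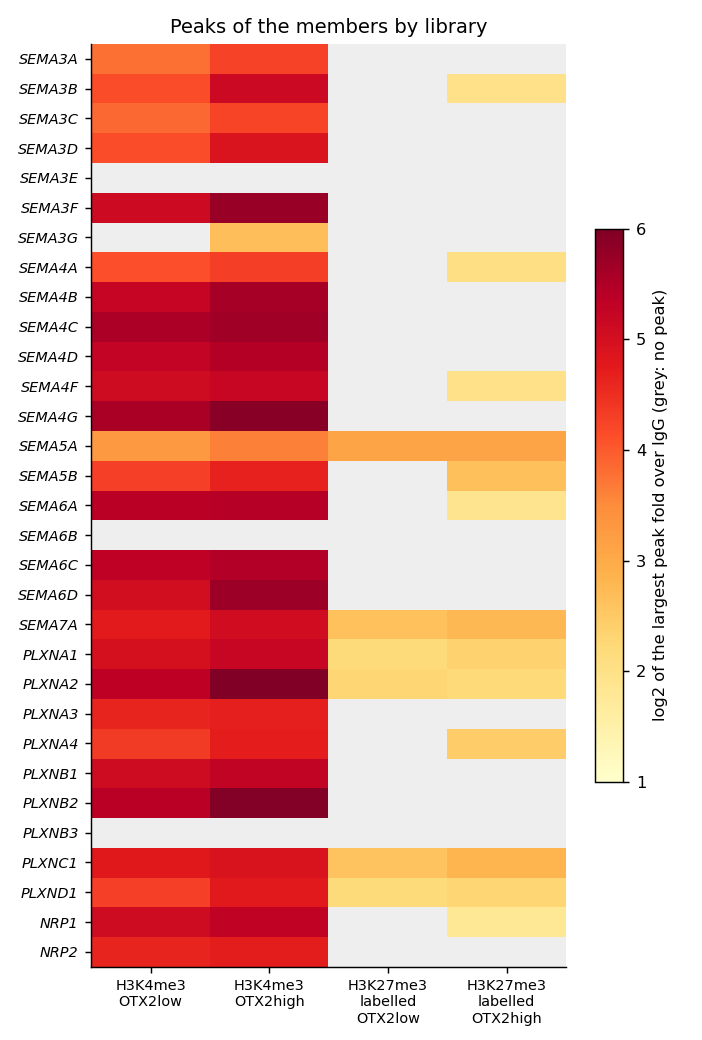
Largest fold over IgG, as log2, of the peaks of each gene (rows) in the 4 peak lists (columns), 1 library each, with grey where no peak was listed. H3K4me3 fills 27 rows in OTX2low and 28 in OTX2high, and H3K27me3 fills 6 and 13 rows in the lists labelled OTX2low and OTX2high.

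The starts of 27 of the 31 genes, 48 in all, could be read in the RefSeq promoter table (GRCh38.p14), which gives 250 bases before and 50 after each start. Of these starts 23 held at least 20 CpG dinucleotides, and all 23 had an H3K4me3 peak within 500 bp in both lists, beside 93.8% and 94.2% of the 11711 starts with as many CpGs over all genes in OTX2low and OTX2high. Of the 25 starts with fewer CpGs, 12 had a peak in OTX2low and 12 in OTX2high, beside 36.0% and 37.2% over all genes. The 6 promoters below are those of 5 genes whose H3K4me3 differed between the libraries and of SEMA3E, which carried no peak. Capitals mark CpG dinucleotides, and each run reads 5′ to 3′ along the strand of its gene.
NRP2, chr2:205682251-205682550, + strand: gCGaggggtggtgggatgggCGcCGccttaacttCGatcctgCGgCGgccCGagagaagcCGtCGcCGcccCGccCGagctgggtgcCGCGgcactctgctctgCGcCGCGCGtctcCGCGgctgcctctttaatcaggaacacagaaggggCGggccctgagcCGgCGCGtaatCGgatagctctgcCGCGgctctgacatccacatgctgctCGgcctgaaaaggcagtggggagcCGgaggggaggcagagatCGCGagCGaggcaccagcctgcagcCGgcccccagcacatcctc
SEMA6C, chr1:151146582-151146881, - strand: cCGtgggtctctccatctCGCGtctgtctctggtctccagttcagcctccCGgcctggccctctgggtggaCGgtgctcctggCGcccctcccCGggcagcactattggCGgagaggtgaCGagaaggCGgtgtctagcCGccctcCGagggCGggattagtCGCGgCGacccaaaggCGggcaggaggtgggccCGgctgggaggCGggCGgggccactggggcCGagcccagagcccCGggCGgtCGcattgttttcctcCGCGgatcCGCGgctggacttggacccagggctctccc
PLXNA3, chrX:154458031-154458330, + strand: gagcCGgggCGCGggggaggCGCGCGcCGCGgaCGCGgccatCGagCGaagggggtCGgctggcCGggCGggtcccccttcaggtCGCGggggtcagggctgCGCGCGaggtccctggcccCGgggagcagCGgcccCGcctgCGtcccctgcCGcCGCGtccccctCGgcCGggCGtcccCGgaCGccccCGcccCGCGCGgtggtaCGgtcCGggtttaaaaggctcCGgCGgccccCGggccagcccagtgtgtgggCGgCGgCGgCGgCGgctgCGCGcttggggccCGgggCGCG
SEMA3F, chr3:50155074-50155373, + strand: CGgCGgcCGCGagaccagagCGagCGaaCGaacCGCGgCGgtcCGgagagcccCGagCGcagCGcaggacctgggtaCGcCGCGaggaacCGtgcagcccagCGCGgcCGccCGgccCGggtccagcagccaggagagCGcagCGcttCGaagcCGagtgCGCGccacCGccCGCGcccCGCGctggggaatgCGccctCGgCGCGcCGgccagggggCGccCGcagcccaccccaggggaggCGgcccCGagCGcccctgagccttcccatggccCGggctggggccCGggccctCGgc
SEMA6D, chr15:47183839-47184138, + strand: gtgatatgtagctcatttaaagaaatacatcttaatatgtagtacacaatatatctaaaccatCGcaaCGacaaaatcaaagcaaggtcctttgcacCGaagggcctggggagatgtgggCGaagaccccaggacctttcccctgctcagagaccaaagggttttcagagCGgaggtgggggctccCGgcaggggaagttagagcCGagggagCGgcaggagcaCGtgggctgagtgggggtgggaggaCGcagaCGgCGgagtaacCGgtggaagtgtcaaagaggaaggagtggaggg
SEMA3E, chr7:83649090-83649389, - strand: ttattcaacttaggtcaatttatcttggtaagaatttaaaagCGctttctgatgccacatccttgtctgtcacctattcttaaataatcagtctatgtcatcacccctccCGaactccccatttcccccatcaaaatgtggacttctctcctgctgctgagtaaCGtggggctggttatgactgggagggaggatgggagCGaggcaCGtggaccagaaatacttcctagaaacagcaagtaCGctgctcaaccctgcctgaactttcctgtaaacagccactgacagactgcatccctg
NRP2 held 33 CpGs, SEMA6C 28, PLXNA3 51, SEMA3F 47, this start of SEMA6D 13 and SEMA3E 6, against a median of 21 over all 22155 promoters. The OTX core motif TAATCC, searched on both strands, was found in 3 of the 48 promoters, at SEMA3D, at an inner start of SEMA5B and on the opposite strand of SEMA6C at position -96 from the start. It occurred in 5.46% of all promoters, close to the share here.

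Between the conditions, 17 of the 31 genes held a differential H3K4me3 region in the authors' scan, and 14 held none. Regions higher in OTX2low only were found at SEMA4D, SEMA6C, NRP1 and NRP2, 4 of 31 genes beside 6% of all genes. Regions higher in OTX2high only were found at 9 genes, SEMA3A, SEMA3B, SEMA3C, SEMA3F, SEMA4B, SEMA4G, SEMA7A, PLXNA1 and PLXND1, beside 41.7% of all genes. SEMA6A, SEMA6D, PLXNA2 and PLXNA3 held both kinds, 4 genes beside 5.99%. Long genes hold both kinds more often: 3 of the 14 members spanning at least 100 kb did, beside 19.8% of 3351 genes of that size. Of these 14 members, 3 were higher in OTX2low only and 2 in OTX2high only, beside 9.79% and 47% of genes of that size. The 14 genes with no region were SEMA3D, SEMA3E, SEMA3G, SEMA4A, SEMA4C, SEMA4F, SEMA5A, SEMA5B, SEMA6B, PLXNA4, PLXNB1, PLXNB2, PLXNB3 and PLXNC1. The adjusted p-values of the H3K4me3 regions in the authors' deposited table reached 0.0221 at most, and they compare the reads of 2 libraries.

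Of the 44 regions at these genes, 33 lay in a peak of the mark and reached 20 normalized reads in a library, and 6 of these were higher in OTX2low and 27 in OTX2high. By this stricter rule 4 genes were higher in OTX2low only (3.63% of all genes), 9 in OTX2high only (42.1%), with SEMA6D and PLXNA2 now among them and SEMA3C and PLXNA1 no longer, and 2, SEMA6A and PLXNA3, in both directions (2.53%). Of genes spanning at least 100 kb, SEMA4D, NRP1 and NRP2 were 3 of 14 members higher in OTX2low only, beside 5.1% of the 3351 genes of that size. Over the region with the most reads, 6 of the 15 genes had a ratio above 0 (40.0%), beside 9.16% of all 9638 genes with such a region. Their median log2 ratio of OTX2low over OTX2high was -0.51, and that of all such genes -0.53. The whole table leaned toward OTX2high, with 11777 of its 13379 such regions higher there and a median of -0.60. The ratios of all 21714 regions were then recentred on their own median of -0.61 and tested again at the window p of 0.0001. Of the 31 genes, 7 were then higher in OTX2low only, 2 in OTX2high only and 1, SEMA6D, in both directions. The split therefore depends on the scaling. SEMA4D, SEMA6C, NRP1 and NRP2 were among the 7, and SEMA3A was 1 of the 2. Only regions already called at the original scaling were tested again, so regions that recentring would newly call are missing. The share of all genes under this rule was not computed, so these counts have no background beside them.

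**Figure D2:**
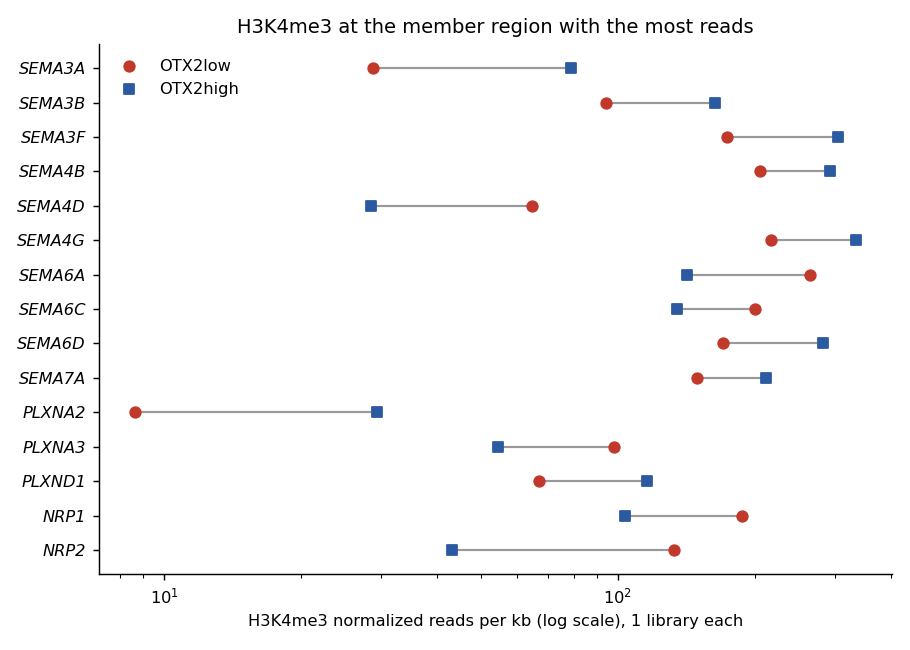
H3K4me3 normalized reads per kb (log axis) in OTX2low (circles) and OTX2high (squares), 1 library each, at the region with the most reads of each of the 15 genes with a region in a peak. NRP2, NRP1, PLXNA3, SEMA6A, SEMA6C and SEMA4D lie to the right in OTX2low, and the other 9 in OTX2high.

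The neuropilins were both higher in OTX2low. NRP2, the co-receptor for SEMA3F, had 636.8 normalized reads in OTX2low and 206.6 in OTX2high at chr2:205682601-205687400, which begins 100 bp downstream of its start. This 3.08-fold difference is a log2 ratio of 1.62 (95% counting interval 1.41 to 1.85) and larger than 77.1% of the 1602 such regions higher in OTX2low. NRP1, the co-receptor for SEMA3A and for VEGF, had 638.1 normalized reads in OTX2low and 352.6 in OTX2high at chr10:33330801-33334200, a log2 ratio of 0.86 (0.67 to 1.04). Its second region, inside the gene and in no peak, had 11 reads in OTX2low and 0 in OTX2high. With OTX2high set to a floor of 3 reads this is 5.76-fold higher in OTX2low. The 95% counting interval of its log2 ratio begins at 1.98.

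Among transmembrane semaphorins, 3 had a region higher in OTX2low in a peak. SEMA6A, a ligand of plexins A2 and A4, had 926.4 normalized reads in OTX2low and 497.0 in OTX2high at chr5:116570701-116574200, downstream of its start, with a log2 ratio of 0.90 (0.74 to 1.05). On the other side of the same start, at chr5:116574601-116577000, it had 387.4 normalized reads in OTX2low and 651.7 in OTX2high, a log2 ratio of -0.75 (-0.94 to -0.56). That second region also covers the antisense gene SEMA6A-AS2. A start with a region higher in OTX2low downstream and one higher in OTX2high upstream occurred at 99 of 6539 genes with such a region within 5 kb (1.51%). SEMA6C had 460.1 normalized reads in OTX2low and 309.5 in OTX2high over its start at chr1:151144401-151146700 (log2 ratio 0.57, 0.36 to 0.78). The ratio over IgG of this region in the authors' deposited table went the other way, at 16.7 in OTX2low and 17.7 in OTX2high. SEMA4D, the plexin B1 ligand, had 77.7 normalized reads in OTX2low and 34.3 in OTX2high at chr9:89496001-89497200 (1.18, 0.60 to 1.78), between 913 and 2112 bp inside the outer end of the gene.

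Among plexins a region higher in OTX2low in a peak was found at PLXNA3, a receptor that acts with neuropilins. It had 166.7 normalized reads in OTX2low and 92.5 in OTX2high at chrX:154458901-154460600 (log2 ratio 0.85, 0.48 to 1.22). At its far end, in a region shared with the gene LAGE3, it had 12.5 normalized reads in OTX2low and 43.1 in OTX2high (-1.78, -2.92 to -0.79). PLXNA2 had a region in no peak with 23.8 normalized reads in OTX2low and 3.99 in OTX2high (2.58, 1.11 to 4.35).

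**Figure D3:**
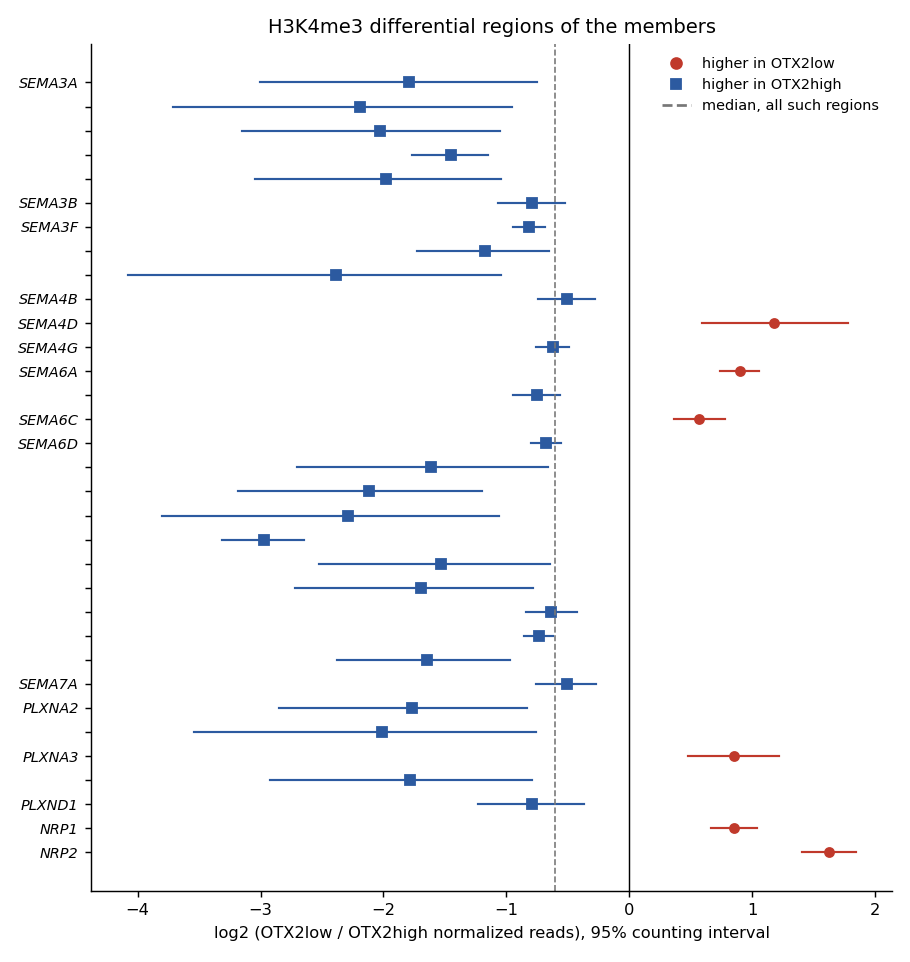
Log2 ratio of OTX2low over OTX2high normalized reads, with 95% counting intervals, at the 33 H3K4me3 regions in a peak, by gene. The 6 circles to the right of 0 are higher in OTX2low and the 27 squares in OTX2high, around a dashed line at -0.60, the median of all such regions.

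At NRP2 the H3K4me3 peak differed in width more than in height. For each gene the tallest OTX2low peak was set beside the tallest OTX2high peak that overlapped it, and the authors' summit pileup was expressed per 1000000 filtered tags. The NRP2 peak was 4360 bp wide in OTX2low and 1916 bp in OTX2high, and reached 3810 bp downstream of the start in OTX2low and 1296 bp in OTX2high. Its summit stood at 2.77 in OTX2low and 2.60 in OTX2high on that scale, a ratio of 1.07. The 2.28-fold width ratio lay above 99.6% of the 14538 genes with such a pair, whose median was 0.868. The NRP1 peak was 6760 bp wide in OTX2low and 5409 bp in OTX2high, with a second OTX2high peak of 1028 bp beside it that covers part of the difference. The SEMA6A peak was 4899 bp wide in OTX2low and 4124 bp in OTX2high, and the SEMA6C peak 2132 bp in OTX2low and 1700 bp in OTX2high. Over the 6 genes with a region higher in OTX2low in a peak with 20 normalized reads, summit ratios ran from 0.980 to 1.12 and width ratios from 0.959, at PLXNA3, to 2.28. Of the 27 genes with a pair, 8 had the wider peak in OTX2low (29.6%), beside 16.1% of all genes. By the closest listed start, 5 of these 6 regions had their midpoint downstream and that of SEMA4D lay upstream. Over all genes 82.1% of the 760 such regions within 5 kb of a start had their midpoint downstream of it, as did 72.7% of the 7239 higher in OTX2high. Peak edges depend on depth, which was greater in OTX2high.

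**Figure D4:**
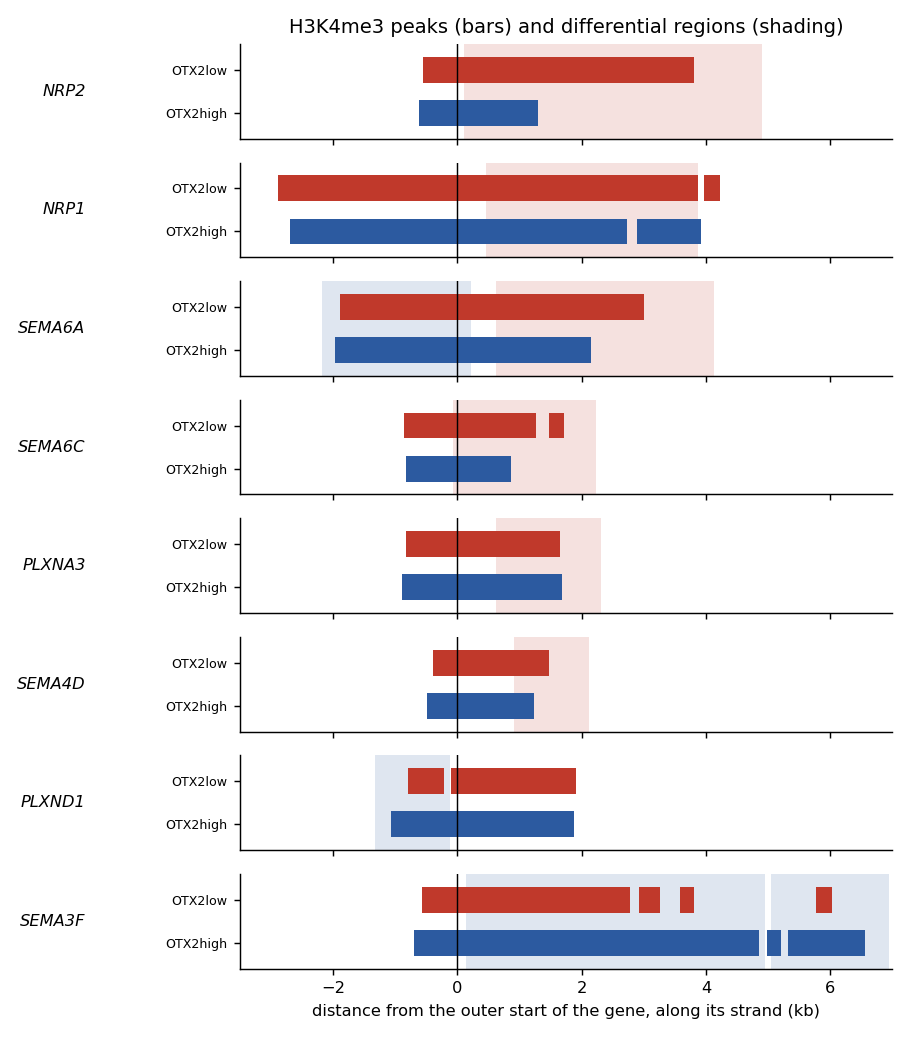
H3K4me3 peaks in OTX2low (upper bars) and OTX2high (lower bars) of 8 genes by distance in kb from the outer start of the gene, with the differential regions in a peak shaded red (higher in OTX2low) or blue (higher in OTX2high). The NRP2 bar ends at 3810 bp in OTX2low and 1296 bp in OTX2high, and the SEMA3F bar that crosses the start at 2784 bp in OTX2low and 4857 bp in OTX2high.

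**Figure D5:**
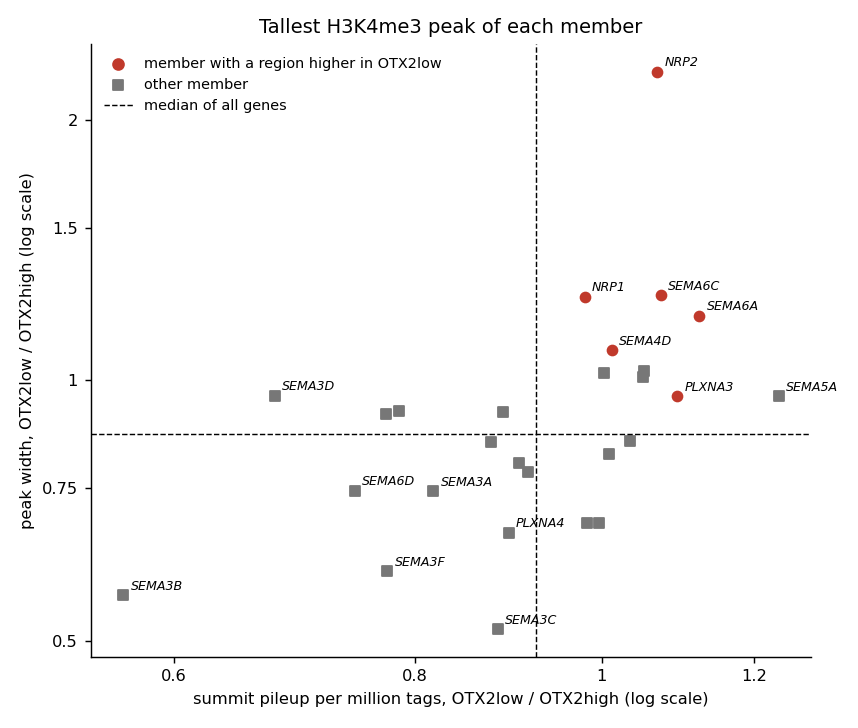
Width ratio against summit pileup ratio (both OTX2low over OTX2high, log axes) for the tallest H3K4me3 peak of 27 genes, with dashed lines at the medians of all genes, 0.868 for width and 0.924 for height. NRP2 stands apart in width at 2.28, while its height ratio is 1.07.

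Of the 7 secreted class 3 ligands, 3 (SEMA3A, SEMA3B and SEMA3F) had regions in a peak with 20 normalized reads, all higher in OTX2high, beside 42.1% of all genes higher in OTX2high only. On recentring, SEMA3A and SEMA3C were still called higher in OTX2high and SEMA3B and SEMA3F were not. SEMA3D, SEMA3E and SEMA3G held no region. SEMA3F, the repellent read by NRP2, had 834.9 normalized reads in OTX2low and 1467 in OTX2high at chr3:50155201-50160000, a log2 ratio of -0.81 (-0.94 to -0.68), in a region that its antisense gene SEMA3F-AS1 shares. The peak over its start was 3349 bp wide in OTX2low and 5563 bp in OTX2high. Farther into the gene, 2 smaller regions had log2 ratios of -1.17 and -2.38. SEMA3B, its neighbour on chromosome 3, had 198.1 normalized reads in OTX2low and 343.0 in OTX2high (-0.79, -1.06 to -0.53). SEMA3A, the NRP1 ligand, had 8 regions, all higher in OTX2high. Its largest, at chr7:84368101-84372800, lay 119925 to 124624 bp inside the gene and had 135.4 normalized reads in OTX2low and 370.1 in OTX2high (-1.45, -1.77 to -1.15). At the outer start of SEMA3A no peak was listed in OTX2low and one of 502 bp in OTX2high, with 13.8 normalized reads in OTX2low and 54.3 in OTX2high (-1.98, -3.04 to -1.05). The tallest SEMA3A peak lay far inside the gene and is in both lists, 5074 bp wide in OTX2low and 6817 bp in OTX2high. None of the 8 differential regions overlapped that tallest peak. The outer start is the end of the annotated span, and no other start of SEMA3A was placed, as it has no promoter entry here. At SEMA3C, a cardiac and neural crest guidance ligand, a region in no peak had 0 reads in OTX2low and 23 in OTX2high, at least 4.88-fold lower in OTX2low against the floor of 3 reads.

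SEMA6D, a ligand of plexin A1, held 14 regions, more than any other of the 31 genes. Its annotated starts lie far apart, and the regions over or beside them were lower in OTX2low, close to the lean of the whole table. Relative to the median of all regions their log2 ratios were -0.07 at the outer start and -0.03 and -0.13 at the inner starts. At chr15:47182001-47187800, over the outer start, it had 917.6 normalized reads in OTX2low and 1467 in OTX2high (log2 ratio -0.68, -0.80 to -0.55). At chr15:47718601-47724600, by the inner starts, it had 1020 normalized reads in OTX2low and 1698 in OTX2high (-0.73, -0.85 to -0.62). Among its regions in a peak, the ratio farthest from 0 was at chr15:47391701-47397600, which begins 207612 bp inside the gene and at no listed start. There it had 104.1 normalized reads in OTX2low and 816.1 in OTX2high, 7.84-fold higher in OTX2high (-2.97, -3.31 to -2.65). By size this ratio ranked 147 of the 11775 such regions higher in OTX2high that had reads in both libraries. The peak there was 455 bp wide in OTX2low and 4278 bp in OTX2high. Another 2 weak regions in no peak went the other way, with 10 and 12 reads in OTX2low and 0 and 1 in OTX2high.

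The other genes with a region higher in OTX2high were class 4 and 7 ligands and plexins. SEMA4B had 288.3 normalized reads in OTX2low and 410.0 in OTX2high (log2 ratio -0.51, -0.74 to -0.28). SEMA7A, the ligand of plexin C1, had 253.2 normalized reads in OTX2low and 360.6 in OTX2high (-0.51, -0.76 to -0.27). Both ratios lay 0.10 above the median of the whole table. The region credited to SEMA4G, with 826.1 normalized reads in OTX2low and 1273 in OTX2high (-0.62), is that at MRPL43 and TWNK. PLXND1, the SEMA3E receptor, had 80.2 normalized reads in OTX2low and 138.8 in OTX2high just upstream of its start (-0.79, -1.23 to -0.37). The 2 regions of PLXNA2 in weak inner peaks had log2 ratios of -1.77 and -2.01. PLXNA1 had a region in no peak with 0 reads in OTX2low and 14 in OTX2high, where the floor of 3 reads in OTX2low gives at least 2.97-fold lower in OTX2low.

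The authors' clusters of differential H3K4me3 regions covered 5 of the 31 genes, beside 12.2% of all genes. In the authors' deposited table, clusters of 3 and 7 regions lay at SEMA6D, one of 3 at SEMA3A, one of 8 that reached SEMA3F, one of 5 that reached PLXNA3 and one of 2 at the start of SEMA6A. None of the 61 H3K27me3 clusters touched these genes.

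H3K27me3 peaks lay at fewer of the genes than H3K4me3 peaks. One was listed at 6 genes in the list labelled OTX2low and at 13 in that labelled OTX2high, beside 17.7% and 25.8% of all genes. SEMA5A, SEMA7A, PLXNA1, PLXNA2, PLXNC1 and PLXND1 had one in both lists, and SEMA3B, SEMA4A, SEMA4F, SEMA5B, SEMA6A, PLXNA4 and NRP1 in the list labelled OTX2high alone. The 2 lists were called with estimated fragment lengths of 78 and 169 bp, and their median peak widths were 139 and 332 bp. The H3K27me3 peak of highest fold at PLXNC1, the SEMA7A receptor, was 342 bp in the list labelled OTX2low and 2273 bp in that labelled OTX2high. SEMA5A, a guidance ligand with thrombospondin repeats, had 1603 bp of H3K27me3 beginning 15 bp inside its start in the list labelled OTX2high, beside H3K4me3 over the same start. Inside SEMA5A, 161314 bp from that start, a narrow peak stood at the same place in all 4 lists. It was 325 and 339 bp wide for H3K4me3 in OTX2low and OTX2high. For H3K27me3 it was 117 and 326 bp wide in the lists labelled OTX2low and OTX2high. This inner peak, and not one at the start, was the tallest H3K4me3 peak of SEMA5A. It also had the largest H3K27me3 fold of the gene, 8.49 and 8.42 in the lists labelled OTX2low and OTX2high. An H3K27me3 peak overlapped an H3K4me3 peak at SEMA5A, SEMA7A, PLXNA2, PLXNC1 and PLXND1 in every pairing of lists, 5 genes beside 5.77% of all genes. With the list labelled OTX2high, 12 genes had such an overlap with either H3K4me3 list, beside 10.7% of all genes for the OTX2low list and 10.8% for the OTX2high list.

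In the authors' deposited table, differential H3K27me3 regions lay at 4 of the 31 genes. Higher in OTX2low was 1, SEMA6A (7.1% of all genes), and higher in OTX2high were 3, SEMA4A, SEMA4F and PLXNA2 (3.36% of all genes). None held both directions, beside 0.255% of all genes. At the region with the most reads, 1466 of the 2139 genes with any region had more in OTX2low (68.5%), against 1 of the 4 here. In that deposited table SEMA6A had 215.2 normalized reads in OTX2low and 132.6 in OTX2high at chr5:116571001-116583000 (log2 ratio 0.70, 0.37 to 1.03), over both of its H3K4me3 regions. The authors' table gave PLXNA2, the SEMA6A receptor, 127.7 normalized reads in OTX2low and 219.5 in OTX2high (-0.78, -1.10 to -0.46) at the larger of 2 inner regions. The deposited table listed SEMA4A with 151.3 normalized reads in OTX2low and 226.4 in OTX2high (-0.58). SEMA4F had 119.0 in OTX2low and 190.9 in OTX2high (-0.68) in the same authors' deposited table. These 5 regions had 0.6 to 1.61 times the IgG reads in OTX2low and 0.99 to 1.43 times in OTX2high, as that deposited table lists them, and 1 of them, at SEMA6A, overlapped a peak.

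Genes beyond the ligands and plexins were taken from 2 lists. Of 13 other receptors and co-receptors, 12 had an H3K4me3 peak in both lists. By the rule of a peak and 20 normalized reads, H3K4me3 was higher in OTX2low only at 1 of them, higher in OTX2high only at 5, and in both directions at 1, beside 3.63%, 42.1% and 2.53% of all genes. L1CAM, the adhesion molecule that joins NRP1 in the SEMA3A receptor, had 565.4 normalized reads in OTX2low and 110.9 in OTX2high (log2 ratio 2.35, 2.07 to 2.64). NRCAM, which pairs with NRP2, had 120.3 normalized reads in OTX2low and 59.0 in OTX2high at one region (1.03, 0.58 to 1.49). The integrin subunits ITGB1 and ITGA1 had log2 ratios of -0.83 and -0.76. Of 34 cytoplasmic effectors, 33 had a peak in both lists, beside 73.7% of all genes in OTX2low and 75.0% in OTX2high. H3K4me3 was higher in OTX2low only at 1 effector, in OTX2high only at 20 and in both directions at 2, beside the same 3.63%, 42.1% and 2.53%, with a median log2 ratio of -0.53 over those 23. CRMP1, the collapsin response mediator, had 194.3 normalized reads in OTX2low and 87.0 in OTX2high (1.16, 0.80 to 1.53). FYN, the kinase downstream of SEMA3A, had log2 ratios of 0.97 at one region and -1.60 at another. The kinase ABL1 and the GTPase RHOA stood at -0.76 and -0.73. H3K27me3, by the authors' deposited table, was higher in OTX2low at 1 of the 13 receptors, CHL1, and at 3 of the 34 effectors, CRMP1, DPYSL4 and DPYSL5, beside 7.1% of all genes. It was higher in OTX2high at 1 effector, FARP1, in the deposited table, beside 3.36% of all genes.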

How the data were processed

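The members and lists used here were chosen with earlier results of these data known. The submitters' processing notes name Bowtie2 2.3.3.1, MACS2 2.1.1.20160309 and the build GRCh38. Each ChIP library has its own narrow-peak list, which the file headers show was called against 1 IgG library at a q of 0.05. The authors' lists hold a pileup signal, −log10 p and −log10 q values and a fold (ratio) over background for each peak, and these are the peak's own values. The differential regions come from diffReps 1.55.6, as the file headers state, which ran a G-test of 1 library against 1 with a p-value cutoff of 0.0001 and windows of 1000 bp for H3K4me3 and 10000 bp for H3K27me3. Those headers name hg19 chromosome sizes, which differ from the GRCh38 build of the notes. The deposited read signal is scaled by a constant per library, and the adjusted p-value and the ratio over IgG reads are the authors'. Their log2 column runs OTX2high over OTX2low, so log2(OTX2low/OTX2high) was recomputed from the reads. The cluster tables give, as another deposited value, the count of regions per cluster. The group-mean columns, 4 in number, duplicate the reads and were left out. The 2 IgG libraries, whose labels disagree, were assigned to no group.

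For H3K4me3, 1 read was worth 1.25 in OTX2low and 0.798 in OTX2high, and division gave whole numbers within 0.05 for 99.9% and 100.0% of values. A G-test recomputed on these reads, adjusted over 663990 windows, called 21714 of 21714 regions, all of which the authors had called. These regions had already passed the authors' G-test, so this count is no independent check of the calls. For H3K27me3 the same division served for intervals. Exact conditional (Clopper-Pearson) 95% intervals cover counting error only, and PCR reads are not independent molecules. With 1 library per group, p-values compare 2 libraries. NRP1, SEMA3A, SEMA6A and SEMA6B have no promoter entry here, and the higher-coordinate end of their span was taken as the start. All genes are named, and full values go to those with a region in a peak with at least 20 normalized reads. Scripts ran in Python 3.11.15 with pandas 2.3.3 and scipy 1.17.1, and the G-test and interval were tested on simulated data.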

Additional observations from a re-analysis of the deposited data

How the results depend on the processing

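No paired analysis was possible because each mark has 1 library per condition. Recentring on the median of all regions in the table, which is -0.61 for H3K4me3, changed most. It covered only regions already called, and the share of all genes under it was not computed. With it 7 genes had H3K4me3 higher in OTX2low only (SEMA4D, SEMA6A, SEMA6C, PLXNA2, PLXNA3, NRP1 and NRP2). Another 2 were higher in OTX2high only (SEMA3A and SEMA3C) and 1 both. The median ratio over the 17 genes with a region, -0.62 with zeros at the floor of 3 reads, moved to -0.017, while SEMA4B and SEMA7A turned to 0.10 and 0.10. The number with both directions was 2 at gene ends, 2 in peaks of the mark, 2 in peaks with 20 normalized reads (chosen after seeing the data), 2 without regions shared with another gene (likewise) and 1 at an adjusted p of 0.001. Taking the region with the largest absolute ratio gave a median of -0.51 and turned SEMA6D to 4.23, PLXNA2 to 2.58 and PLXNA3 to -1.78, all from regions with few reads. H3K27me3 peaks were sensitive to the threshold: at −log10 q of 5 and 10, 3 and 1 genes stayed in the list labelled OTX2low, and 8 and 4 in that labelled OTX2high. At −log10 q of 5, chosen after seeing the data, both marks overlapped at 2 and 7 genes, against 5 and 12. By the deposited H3K27me3 table, the 1 gene higher in OTX2low became 0 with 50% of a region inside, and the 3 higher in OTX2high became 1 at gene ends, 0 in peaks, 0 on recentring and 1 on scaling to tags. The median H3K27me3 ratio of -0.63 became -0.16 on recentring and -0.49 on scaling to tags. With the libraries named by sample label (chosen after seeing the data), 3 genes were higher in OTX2low and 1 in OTX2high, the median became 0.63, and the ratios of SEMA4A, SEMA4F, SEMA6A and PLXNA2 became 0.58, 0.68, -0.70 and 0.78. Of 183 values recomputed, 124 stayed within the tolerance set for them (a factor of 1.5 for a count), 49 moved and 10 turned direction. Some of these outcomes were fixed in advance. For a gene with 1 region, the largest ratio and the summed reads return the main value. Naming the H3K27me3 libraries by sample label only turns the sign. The tally is therefore no measure of how stable the results are. Depth limits weak regions: 11 of the 44 H3K4me3 regions lay outside peaks or under 20 normalized reads.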
